A study of Mus musculus with 15 samples.

Results

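Wnt ligands, their receptors, the R-spondin axis and the secreted Wnt antagonists were followed through the development of the mouse stomach as a set of 51 genes out of 44788 gene symbols in the deposited tables. The members were chosen by gene symbol: 19 Wnt ligands, 12 receptors and coreceptors (Frizzled genes, Lrp5 and Lrp6), 8 genes of the R-spondin axis (4 R-spondins, Lgr4, Lgr6, Znrf3 and Rnf43), 10 secreted antagonists (Sfrp, Dkk and Wif1 genes and Frzb), and Axin2 and Porcn. RNA was sequenced from whole stomachs of C57BL/6 mice at 15 time points, and each time point was represented by 1 transcriptome. The time points were every embryonic day from E12.5 to E18.5, the postnatal days D1, D3 and D5, and the postnatal weeks W1, W2, W3, W6 and W8. The labels give the same strain for all and name no treatment, and they give neither the number of animals behind a transcriptome nor their sex. Per the methods, stomachs of several embryos were combined at the younger embryonic ages and single stomachs were used after birth, without a statement on whether this holds for the RNA. The animals older than 2 weeks were male and the younger ones were of either sex, so that weaning and sex cannot be told apart. By age, the 15 transcriptomes were grouped into 7 fetal, 5 suckling (D1 to W2) and 3 weaned (W3 to W8) stomachs, weaning falling in week 3.

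Wnt proteins are lipid-modified secreted signals, and Porcn is the acyltransferase that attaches the lipid. A Wnt binds a Frizzled receptor, and in the canonical branch also Lrp5 or Lrp6, after which β-catenin is stabilized and activates target genes with TCF and LEF factors. Wnt5a and Wnt11 are known mainly for branches that act without β-catenin, on cell polarity and movement. R-spondins bind Lgr receptors and block Znrf3 and Rnf43, ubiquitin ligases that remove Frizzled proteins from the cell surface. Sfrp proteins, Frzb and Wif1 bind Wnts outside the cell, and Dkk1, Dkk2 and Dkk4 bind Lrp5 and Lrp6. In the fetal stomach, Wnt signals from the mesenchyme are known to take part in patterning the epithelium along the organ.

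Values are FPKM, fragment numbers divided by transcript length and by the mapped fragments of the library, so that levels of different genes can be set side by side per length. The sum of FPKM over all entries ranged from 745538 at E14.5 to 1344957 at W6, and the 10 highest genes held 11.2% of it at E14.5 and 53.2% at W6. If the deposited confidence bounds are Poisson, about 10600000 to 17000000 fragments lay behind a transcriptome, and the median gene entry with 1 fragment had 0.0415 to 0.0679 FPKM. Stomach markers were present: Barx1, a homeobox gene of stomach mesenchyme, lay at 472 FPKM at E12.5 and 37.6 FPKM at W8, and Atp4a, the proton pump subunit of parietal cells, at 4.34 and 3289 FPKM. Liver and pancreas markers stood apart in single transcriptomes, with Alb at 461 FPKM at D1 against 25.8 FPKM at D3, and Cela2a at 22.3 FPKM at D3 against 0.341 FPKM at D5. Alb was also higher at W3, with 65.4 FPKM, than at W2 (1.81 FPKM) and W6 (0.869 FPKM). The 5 liver genes, all above 1 FPKM somewhere, summed to 32.0 to 248 FPKM in fetal, 259 to 1170 in suckling and 1468 to 2397 in weaned stomachs, where Apoa1 made up most, and the 5 pancreas genes, of which Pnlip and Ins2 stayed under 1 FPKM, to 40.2 FPKM or less. The squamous keratin gene Krt5 lay at 27.3 FPKM at W6 and 1.26 FPKM at W8. Counts of called genes are therefore also given without D1, D3 and W8, a setting that keeps W3.

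The regions before the transcription start are shown for 3 members that describe different courses: Fzd1, which held its level through fetal life, Fzd7, which fell steadily, and Sfrp5, which had the steepest fetal fall. Each is the 250 bases before the RefSeq start in GRCm38.p6, read 5′ to 3′ on the gene's strand, and none overlaps an exon of the gene annotations used. Capitals mark CTTTGA or its reverse complement TCAAAG, the core of the TCF/LEF motif, searched on both strands. The windows lie at chr5:4758217-4758466 on the minus strand, chr1:59481897-59482146 on the plus strand and chr19:42202253-42202502 on the minus strand.
Fzd1: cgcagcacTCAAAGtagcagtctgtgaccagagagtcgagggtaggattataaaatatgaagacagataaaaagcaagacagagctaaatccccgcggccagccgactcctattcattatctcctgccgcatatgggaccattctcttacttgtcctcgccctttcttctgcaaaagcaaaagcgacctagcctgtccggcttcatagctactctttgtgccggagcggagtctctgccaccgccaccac
Fzd7: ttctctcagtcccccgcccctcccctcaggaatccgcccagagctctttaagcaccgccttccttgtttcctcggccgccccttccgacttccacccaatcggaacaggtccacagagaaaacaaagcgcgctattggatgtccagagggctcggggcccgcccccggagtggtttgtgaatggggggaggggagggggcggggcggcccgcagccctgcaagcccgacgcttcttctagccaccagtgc
Sfrp5: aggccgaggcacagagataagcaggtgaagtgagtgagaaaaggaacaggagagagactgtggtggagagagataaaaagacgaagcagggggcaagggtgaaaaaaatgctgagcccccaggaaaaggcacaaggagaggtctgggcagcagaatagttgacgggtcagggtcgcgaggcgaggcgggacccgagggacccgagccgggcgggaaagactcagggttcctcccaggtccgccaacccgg
The Fzd1 window holds the core once, on the opposite strand. Of the 51 members, 33 were matched among the RefSeq promoters, with 37 windows between them, and 5 of these windows held the core, beside 4544 of all 32851 windows (13.8%). The member windows with the core were those of Fzd1, Frzb and Dkk1 and 1 each of Wnt5b and Wnt11. A match is a description of the letters only.

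Of the 51 members, 41 reached 1 FPKM at 1 or more time points and were tested: 12 of 19 ligands, all 12 receptors, 7 of 8 genes of the R-spondin axis, 8 of 10 antagonists, and Axin2 and Porcn. Under 1 FPKM at every time point were Wnt1, Wnt3, Wnt7a, Wnt8a, Wnt8b, Wnt9b, Wnt10b, Rspo4, Dkk1 and Dkk4. Dkk1 came nearest with 0.971 FPKM at E14.5 and Rspo4 with 0.952 FPKM at W8, and the tested members with the lowest maxima were Fzd9 at 1.11 FPKM and Wif1 at 1.36 FPKM. Wnt2 passed only through fetal stomachs, and Fzd9 and Wif1 only through suckling ones, whereas 33 members reached 1 FPKM in all 3 age classes. As deposited, the highest value of a member lay at a fetal time point for 27 of the 41, at a suckling one for 12 and at a weaned one for 2, beside 64.0%, 22.9% and 13.1% of all 16902 genes tested. This order depended on the scale, since with median-ratio scaling the numbers were 15, 19 and 7 members, beside 42.7%, 19.4% and 37.9% of all genes. As deposited, E12.5 alone held the highest values of 12 members: Wnt2b, Wnt5a, Wnt5b, Fzd5, Fzd7, Lrp6, Rspo1, Rspo3, Sfrp1, Sfrp5, Frzb and Axin2.

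**Figure D1:**
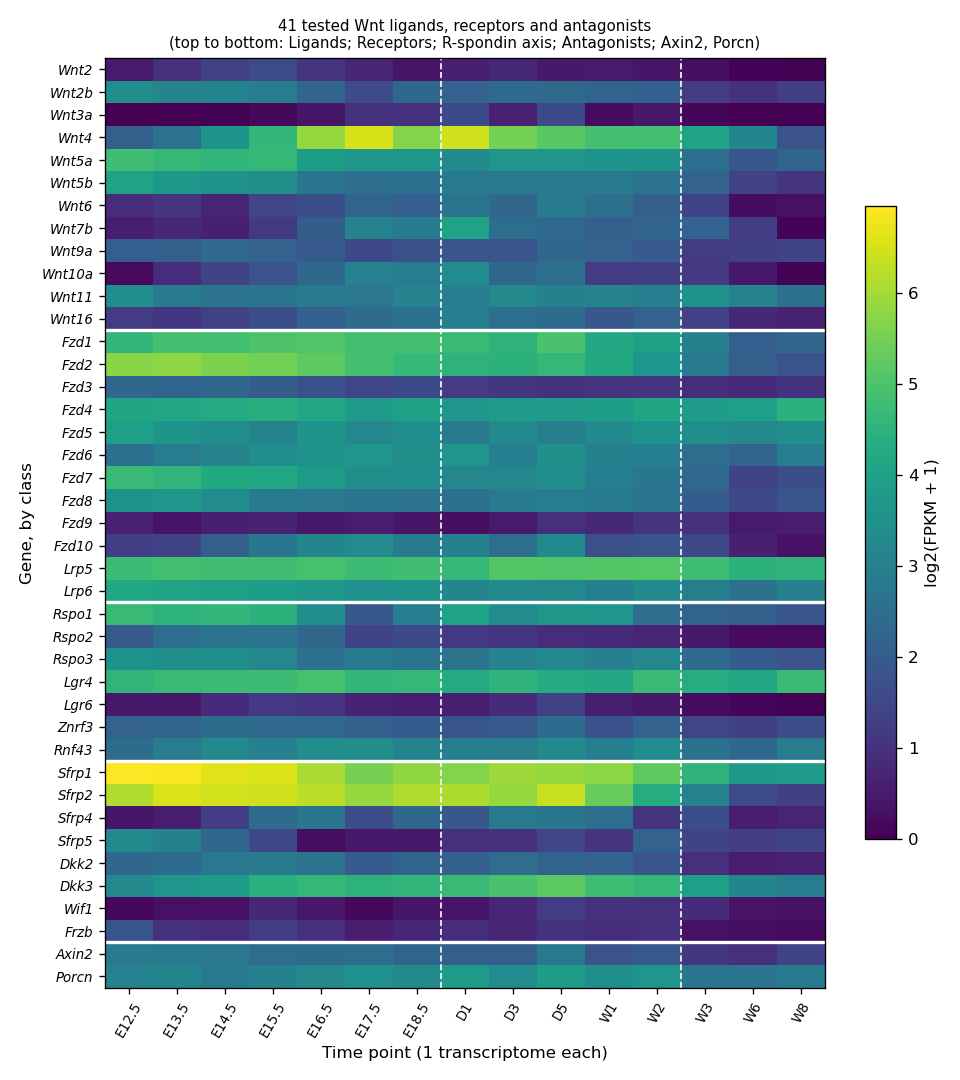
Level of the 41 tested members (rows, by class) at the 15 time points (columns), as log2(FPKM + 1) from dark (low) to bright (high), with dashed lines at birth and at weaning. Sfrp1 and Sfrp2 are the brightest rows in fetal stomachs, Wnt4 brightens from E12.5 to a maximum of 91.0 FPKM at E17.5, and most rows are darkest at W6 or W8.

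With 1 transcriptome per time point there is no replicate error at a time point, so the time points of an age class served as its replicates, and the spread includes change with age inside the class. Differences were tested with limma on log2(FPKM + 1) over all 16902 genes that reached 1 FPKM, with Benjamini-Hochberg adjustment and a threshold of 0.05. With 1 added to each FPKM, fold changes of weakly expressed genes come out too small. Across the 3 age classes 30 of 41 members were called, beside 79.3% of all genes tested. Since a few digestive genes took a growing part of the FPKM after birth, all comparisons were also made after median-ratio scaling, which moved the median log2 fold change of all genes from -0.22 to 0.00 for suckling against fetal stomachs and from -0.42 to -0.02 for weaned against suckling ones. On that scale 28 members were called across the classes, beside 72.1% of all genes. In bulk RNA, fewer cells of a type and less RNA per cell cannot be told apart.

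Between E12.5 and E18.5 members of all classes changed, in shares close to those of all genes. From E12.5 to E18.5 10 members rose (21.1% of all genes tested were called rising) and 13 fell (35.5% called falling), and each of these 23 was called in the same direction after median-ratio scaling, which gave 12 rising (26.6% of all genes) and 13 falling (27.4%). The rising members were the ligands Wnt3a, Wnt4, Wnt6, Wnt7b, Wnt10a and Wnt16, the receptors Fzd6 and Fzd10, and the antagonists Sfrp4 and Dkk3. The falling members were the ligands Wnt2b, Wnt5a and Wnt5b, the receptors Fzd2, Fzd3, Fzd7, Fzd8 and Lrp6, the R-spondins Rspo1 and Rspo3, the antagonists Sfrp1 and Sfrp5, and Axin2. The median slope over the 41 members was -0.04 per day on the log2 scale, beside -0.03 over all genes.

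**Figure D2:**
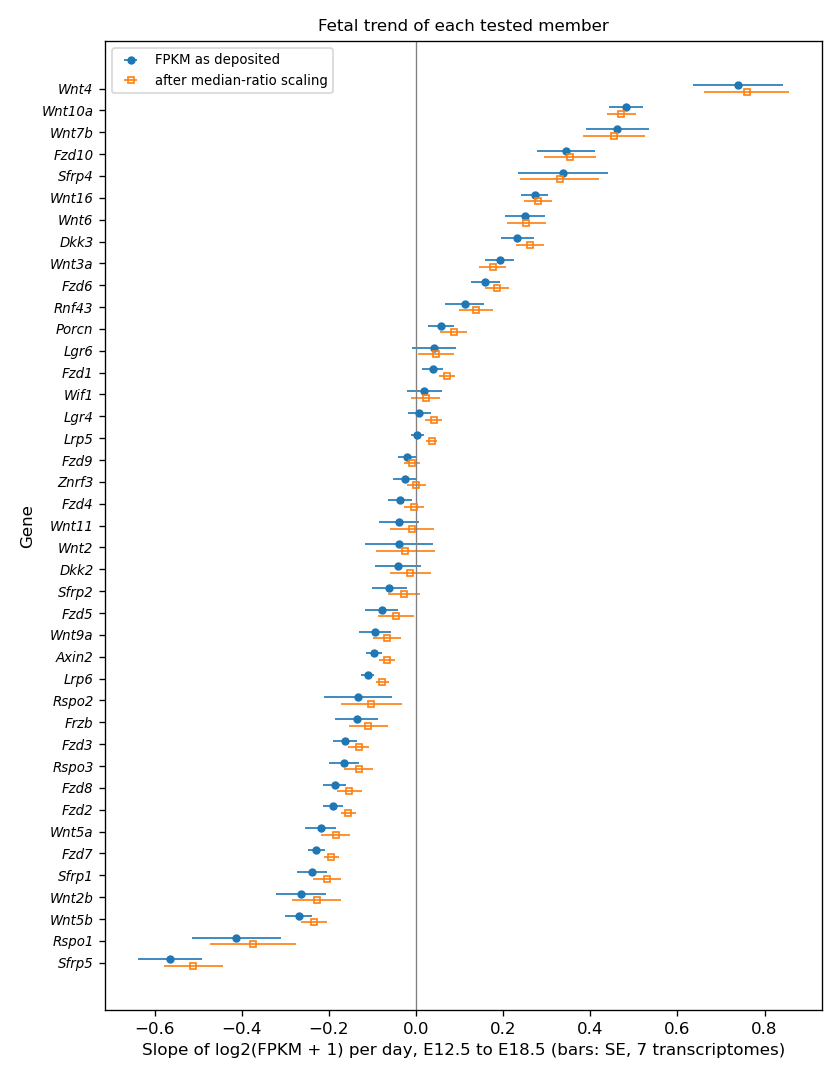
Slope of log2(FPKM + 1) per day over the 7 fetal time points for each of the 41 tested members, with FPKM as deposited (filled circles) and after median-ratio scaling (open squares), and bars for the standard error. Wnt4 has the steepest rise (0.74 per day) and Sfrp5 the steepest fall (-0.57 per day), and the scaling moves most points slightly to the right.

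Wnt5a (chromosome 14, 28505473 to 28527448, positions of the whole gene in GRCm38 as the files give them) was the ligand with the highest FPKM in the early fetal stomach, and it fell in steps. Its values were 27.2, 24.1, 22.8, 23.7, 13.7, 11.53 and 11.8 FPKM from E12.5 to E18.5, 8.92, 11.3, 11.4, 11.1 and 11.0 from D1 to W2, and 4.84, 2.74 and 3.69 at W3, W6 and W8. The 4 values to E15.5 were 22.8 FPKM or more, every later fetal and suckling value lay between 8.92 and 13.7 FPKM, and the weaned values were lower again. The fetal slope of Wnt5a was -0.22 per day on the log2 scale (standard error 0.04, adjusted p = 0.00232 in limma). Suckling stomachs were all below fetal ones (log2 fold change -0.72, standard error 0.22, adjusted p = 0.0109 in limma), a call that was lost with median-ratio scaling (-0.45 (adjusted p = 0.0508)). Without D1, D3 and W8 the difference was -0.66 (adjusted p = 0.0673 in limma). Weaned stomachs were all below suckling ones (log2 fold change -1.32, standard error 0.27, adjusted p = 0.00164 in limma), and this held with median-ratio scaling (-0.85 (adjusted p = 0.0106)).

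Wnt5b, the closest relative of Wnt5a, took a like course at a lower level. It measured 15.1, 12.05, 10.9, 9.77, 5.66, 4.70 and 4.93 FPKM from E12.5 to E18.5, 6.14, 6.498, 6.49, 6.22 and 5.24 from D1 to W2, and 3.58, 1.58 and 1.08 at W3, W6 and W8. Its fetal values parted into 9.77 FPKM or more up to E15.5 and 5.66 FPKM or less from E16.5 (slope -0.27, standard error 0.03, adjusted p = 0.000656 in limma). No difference was called between suckling and fetal stomachs (-0.39 (adjusted p = 0.221)), and the weaned values were all below the suckling ones (log2 fold change -1.29, standard error 0.33, adjusted p = 0.00637 in limma). Without D1, D3 and W8 the fall at weaning was -1.02 (adjusted p = 0.0987 in limma), and with quantile normalization it was -0.74 (adjusted p = 0.102). Wnt2b, a ligand of the canonical branch, likewise fell, from 9.95 FPKM at E12.5 down to a fetal minimum of 2.03 FPKM (slope -0.26, standard error 0.06, adjusted p = 0.00790 in limma).

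Wnt4 (chromosome 4, 137277635 to 137299501), a ligand known for its roles in the kidney and the female reproductive tract, moved the other way and became the ligand with the highest FPKM. Its level was 3.33, 5.23, 11.1, 23.5, 57.2, 91.0 and 49.7 FPKM from E12.5 to E18.5, 86.9, 44.4, 34.8, 28.7 and 28.2 from D1 to W2, and 15.7, 8.16 and 2.41 at W3, W6 and W8. From E12.5 to E17.5 each value was above the one before, D1 came near the maximum, and the level was lower at every later time point to W8. The fetal slope of 0.74 per day (standard error 0.10, adjusted p = 0.00132 in limma) was the steepest rise of the 41 members. Suckling stomachs were not called against fetal ones (0.95 (adjusted p = 0.263)). With the protein phases of the study, which set E17.5 and E18.5 with the suckling stomachs, the difference was called (1.82, adjusted p = 0.0136 in limma). The weaned values were all below the suckling ones (log2 fold change -2.37, standard error 0.89, adjusted p = 0.0379 in limma), but that call was lost without D1 (-2.10, adjusted p = 0.0783 in limma), without W8 (-1.75, adjusted p = 0.169), without any 1 of D3, D5 and W6, and with median-ratio scaling (-1.86 (adjusted p = 0.124)).

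Wnt7b, a ligand of epithelia, rose at the same time from a low level. It was measured at 0.487, 0.749, 0.530, 1.27, 3.13, 7.70 and 6.29 FPKM from E12.5 to E18.5, 15.1, 4.75, 4.19, 3.36 and 3.78 from D1 to W2, and 3.51, 1.41 and 0.0413 at W3, W6 and W8. The value at D1 stood far above the other 4 suckling values, which lay between 3.36 and 4.75 FPKM, and W8 was close to 0. Wnt7b rose over the fetal days (slope 0.46, standard error 0.07, adjusted p = 0.00204 in limma) and was called in neither class comparison (1.06 (adjusted p = 0.0950) for suckling against fetal, -1.49 (adjusted p = 0.0686) for weaned against suckling, limma). A further 4 ligands rose in the fetal stomach and had their maxima after birth. Wnt10a reached 9.19 FPKM and Wnt16 6.997 FPKM, both at D1. Wnt6 reached 6.26 FPKM and Wnt3a 1.95 FPKM, both at D5, and Wnt3a was listed at 0 at E12.5 and E13.5. Wnt10a, which works in skin appendages and teeth, had 0.139 FPKM at E12.5 and 7.45 FPKM at E17.5 (slope 0.48, standard error 0.04, adjusted p = 0.000260 in limma) and was at 0.0502 FPKM at W8.

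**Figure D3:**
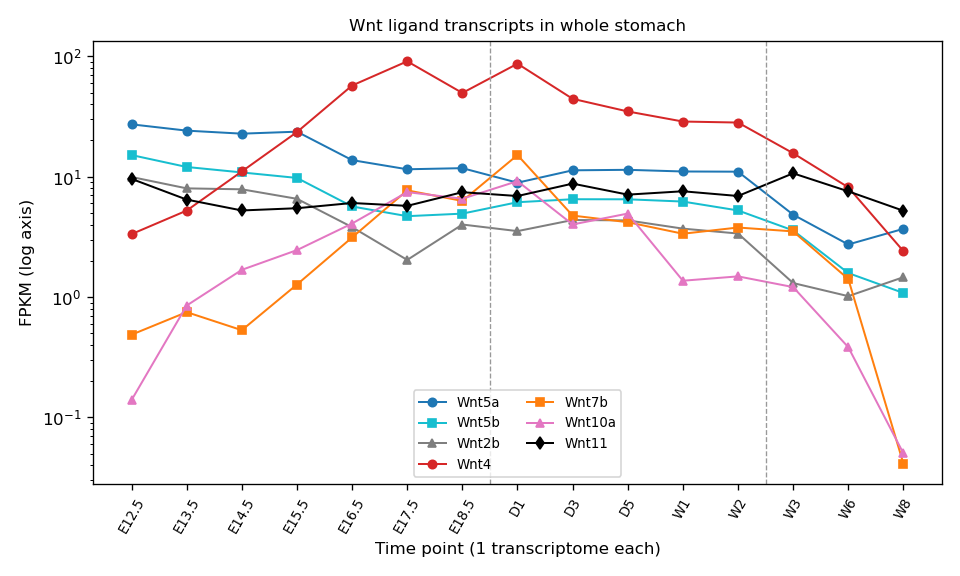
FPKM of 7 Wnt ligands (log axis) at the 15 time points, 1 transcriptome each, with dashed lines at birth and at weaning. The curve of Wnt4 crosses that of Wnt5a between E15.5 and E16.5, Wnt7b and Wnt10a drop to 0.0413 and 0.0502 FPKM at W8, and Wnt11 stays between 5.21 and 10.7 FPKM throughout.

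Krt5 and Trp63, markers of the squamous epithelium that lines the forestomach of the mouse, had a course like that of Wnt4, Wnt7b and Wnt10a. Krt5, Trp63 and Wnt4 were highest at E17.5, and Wnt7b and Wnt10a at D1. Wnt6 and Wnt3a differed, with their maxima at D5. Krt5, a basal keratin, was at 6.56, 39.0, 136, 420.2, 703, 964 and 582 FPKM from E12.5 to E18.5, 681, 272, 432, 149.7 and 145 from D1 to W2, and 84.6, 27.3 and 1.26 at W3, W6 and W8. At E12.5, E17.5 and W8 Trp63, the p63 transcription factor of basal cells, was at 2.89, 22.1 and 0.0511 FPKM. The course of Fzd10 was of the same kind, with 1.44, 9.30 and 0.267 FPKM. All 7 genes of the epithelial list that holds Krt5 and Trp63 reached 1 FPKM, and their summed level was 398 to 2672 FPKM in fetal, 1938 to 2824 in suckling and 2501 to 3189 in weaned stomachs. The other 5, Cdh1, Epcam, Krt8, Krt18 and Cldn18, which gland epithelium also makes, did not follow Krt5. At E12.5, E17.5 and W8 Krt8 was at 151, 883 and 1478 FPKM, and Epcam at 85.5, 129.6 and 78.1 FPKM. The part of forestomach cells in the levels of Wnt4, Wnt7b, Wnt10a and Fzd10 was not tested.

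**Figure D4:**
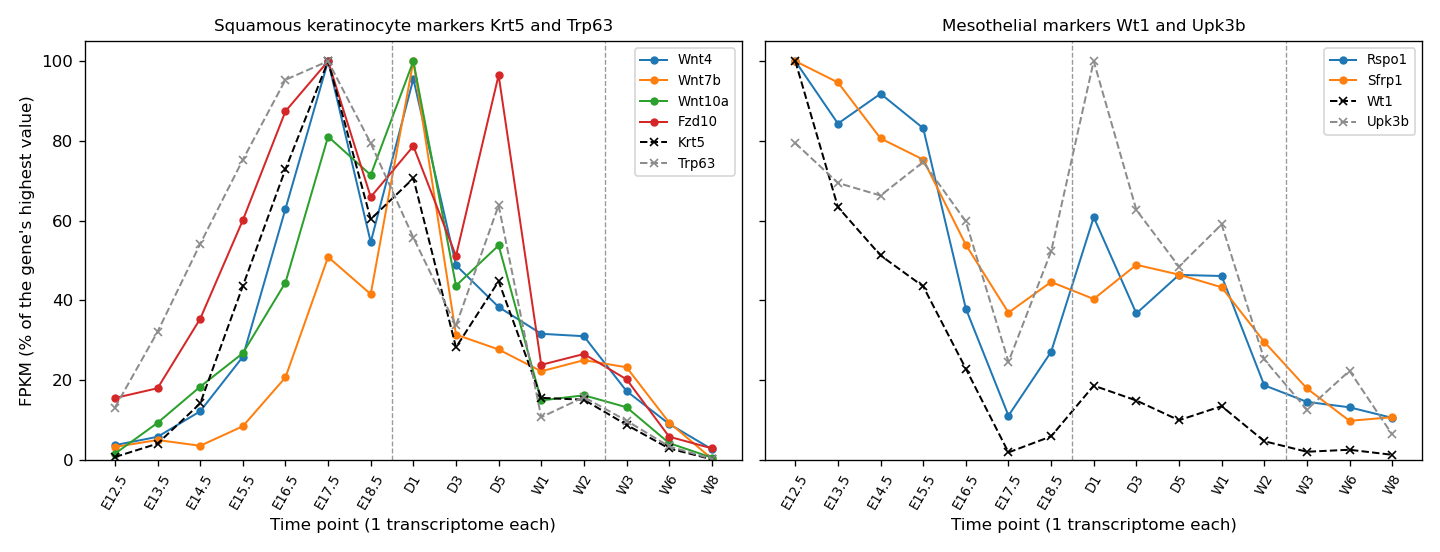
FPKM as a percentage of each gene's own highest value at the 15 time points, with members as solid lines and markers as dashed lines. On the left, Wnt4 and Fzd10 have their maxima at E17.5 with Krt5 and Trp63, and Wnt7b and Wnt10a at D1. On the right, Rspo1 and the mesothelial markers Wt1 and Upk3b all dip at E17.5, where Sfrp1 also has its lowest fetal value, 45.4 FPKM. Lrrn4, Msln and Krt19 of the mesothelial list are not drawn, and Msln had its highest fetal value at E17.5, 27.2 FPKM.

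Wnt11, known for cell movements and early kidney branching, was measured at 9.59, 6.45, 5.24, 5.47, 6.05, 5.72 and 7.44 FPKM from E12.5 to E18.5, 6.91, 8.76, 7.10, 7.57 and 6.91 from D1 to W2, and 10.7, 7.56 and 5.21 at W3, W6 and W8. Its lowest and highest values, at W8 and W3, lay 2.05-fold apart, the narrowest range of the 12 tested ligands as deposited. In limma it was called neither across the age classes (adjusted p = 0.454) nor over the fetal days (-0.04 (adjusted p = 0.496)). These results depended on the scale. With median-ratio scaling Wnt11 ran from 4.12 at E14.5 to 14.0 at W3, 3.41-fold apart, a wider range than the 2.25-fold of Wnt9a. It was then called across the classes (adjusted p = 0.00101 in limma), with a suckling level above the fetal one (0.42 (adjusted p = 0.0372)) and a weaned level above the suckling one (0.55 (adjusted p = 0.0389)). Wnt9a, found mainly in developing joints and liver vessels, ranged from 1.30 FPKM at W3 to 4.23 FPKM at E14.5, and Wnt2 peaked at 2.03 FPKM at E15.5.

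The make-up of the ligand pool was compared by shares, which do not depend on the scale of a transcriptome. Wnt5a held the largest share of the summed ligand FPKM from E12.5 (37.8%) to E15.5 (28.8%, against 28.5% for Wnt4). Wnt4 led from E16.5 (55.2%) to W6 (32.1%), with its largest share of 63.9% at E17.5. At W8 Wnt11 led with 31.6%, and Wnt4 was down to 14.6%. The ratio of Wnt4 to Wnt5a FPKM went from 0.122 at E12.5 through 9.74 at D1 to 0.653 at W8. The summed ligand level was 72.1 FPKM at E12.5, 155 FPKM at D1 and 16.48 FPKM at W8.

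**Figure D5:**
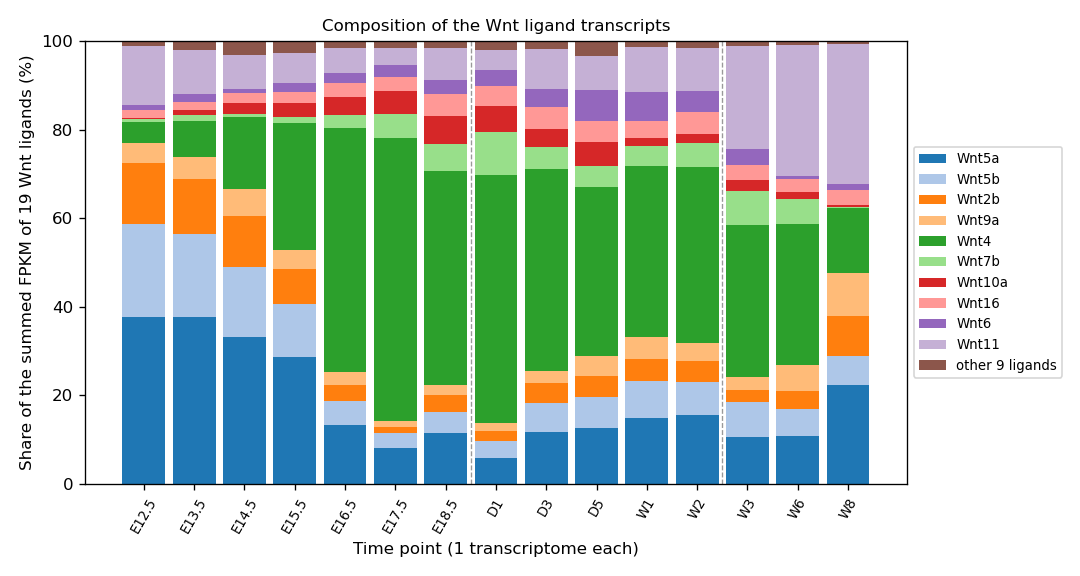
Share of each ligand in the summed FPKM of the 19 Wnt ligands (percent, stacked to 100) at the 15 time points. The Wnt5a, Wnt5b and Wnt2b blocks make up most of the bar at E12.5, the Wnt4 block reaches 63.9% at E17.5, and the Wnt11 block is the largest at W8 with 31.6%.

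Few of the members differed between fetal and suckling stomachs. Suckling stomachs were higher than fetal ones for 4 members (17.0% of all genes were called higher) and lower for 9 (41.9% called lower). With median-ratio scaling 7 were higher (26.0% of all genes) and 5 lower (24.8%), and without D1, D3 and W8 5 were higher (13.9%) and 5 lower (36.5%). Without E17.5 (18.3% of all genes) or without E18.5 (18.9%), 7 were higher. Called on both scales were Wnt6, Dkk3, Wif1 and Porcn as higher and Fzd2, Fzd3, Fzd7, Lrp6 and Rspo2 as lower. Wif1 passed the limit of 1 FPKM only through suckling stomachs, so its call is no support, and 3 higher members are left without it. As deposited, in no member did all 5 suckling values lie above all 7 fetal ones (6.63% of all genes), whereas Wnt5a, Fzd2, Fzd3, Lrp6 and Rspo2 had all suckling values below (20.9%). With median-ratio scaling the ranges of Wnt5a and Fzd2 overlapped, and the suckling values of Wnt6 and Dkk3 all lay above the fetal ones. The share over all genes was not counted on that scale. The median log2 fold change of the members was -0.21, beside -0.22 over all genes.

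Weaning went with lower levels in most members. In weaned stomachs 27 members were lower than in suckling ones (46.7% of all genes were called lower), and in limma none was higher at an adjusted p under 0.05 or at an unadjusted p under 0.05 (4.9% of all genes were called higher). As deposited, the 3 weaned values lay below all 5 suckling values for 30 of the 41 members (46.5% of all genes). With median-ratio scaling some of these ranges overlapped, among them Fzd6 (10.2 at W8, 6.82 at D3) and Porcn (9.34 at W6, 8.95 at D3). The ranges were not counted again on that scale. Of the 33 members that reached 1 FPKM in all 3 age classes, 23 were lower. Wnt3a, Lgr6, Dkk2 and Frzb, also lower, passed the limit of 1 FPKM only through fetal and suckling stomachs, so their calls are no support. With median-ratio scaling 16 were lower (15.7% of all genes) and 4 higher (20.9%), and these 16 were all among the 27. The median log2 fold change of the members was -0.97 (-0.59 with scaling), beside -0.42 (-0.02) over all genes. Without W6 16 members were lower (27.5% of all genes), and without D1, D3 and W8 15 were lower (24.4%), so that the calls over all genes were fewer as well.

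Markers of several cell types moved with these falls. All 7 fibroblast and mesenchyme markers reached 1 FPKM, and their summed level was 1989 to 3517 FPKM in fetal, 1668 to 4085 in suckling and 299 to 1463 in weaned stomachs. All 5 endothelial markers did so, with a sum of 48.4 to 83.1 FPKM in suckling and 19.3 to 33.7 in weaned stomachs, as did all 5 of enteric neurons and glia, with 19.1 to 31.5 and 5.24 to 9.86 FPKM. The sum of the 7 gastric gland genes was 9966 to 60412 FPKM in suckling and 187073 to 271847 in weaned stomachs, and the 6 smooth muscle genes overlapped, with 4278 to 10483 and 2083 to 7771 FPKM. These sums are as deposited and were not rescaled. Median-ratio scaling divides values by 0.760 at W3 and by 0.965 at W2, so the separation of weaned from suckling sums can depend on the scale. The part of these cells in the falls was not tested.

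Among the receptors, the largest share of the summed FPKM passed from Fzd2 to Lrp5. Fzd2 (chromosome 11, 102604431 to 102608058) had the highest FPKM of any receptor, with 52.1, 53.2, 46.9, 43.1, 36.4, 28.8 and 24.2 FPKM from E12.5 to E18.5, 22.0, 21.2, 24.0, 17.6 and 11.504 from D1 to W2, and 6.37, 3.27 and 2.42 at W3, W6 and W8. It fell at nearly every step, and as deposited all suckling values lay below all fetal ones and all weaned values below all suckling ones. With median-ratio scaling Fzd2 was at 22.5 at D5 and 22.0 at E18.5. It was lower at each stage (slope -0.19, standard error 0.02, adjusted p = 0.000767 in limma over the fetal days; -1.03 (adjusted p = 0.00281) for suckling against fetal and -2.05 (adjusted p = 0.000326) for weaned against suckling), and median-ratio scaling kept all 3 calls. Fzd7, a Frizzled of stem and progenitor cells in the gut, took the same course.

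The level of Fzd7 was 24.7, 22.5, 17.8, 17.1, 12.7, 10.1 and 9.69 FPKM from E12.5 to E18.5, 8.31, 8.36, 9.71, 6.99 and 5.66 from D1 to W2, and 4.22, 1.70 and 2.16 at W3, W6 and W8. Its fetal fall was even (slope -0.23, standard error 0.02, adjusted p = 0.000278 in limma), and both class differences were called (-0.93 (adjusted p = 0.00469) and -1.29 (adjusted p = 0.00319)), although without D1, D3 and W8 the fall at weaning missed the threshold (-1.14, adjusted p = 0.0578). With quantile normalization the fall of Fzd7 at weaning also missed the threshold (-0.73, adjusted p = 0.0539 in limma). Fzd1 differed in the fetal stomach, where it stayed level. It was found at 23.5, 28.3, 28.0, 31.6, 32.6, 28.3 and 28.9 FPKM from E12.5 to E18.5, 25.1, 21.9, 30.3, 17.3 and 14.6 from D1 to W2, and 7.17, 3.18 and 3.86 at W3, W6 and W8, with the fetal values inside 23.5 to 32.6 FPKM and no trend called (0.04 (adjusted p = 0.212)). With median-ratio scaling a small rise was called (0.07 (adjusted p = 0.0159)). In weaned stomachs it lay far below the suckling values (log2 fold change -2.01, standard error 0.23, adjusted p = 0.000104 in limma), also with scaling (-1.52 (adjusted p = 0.000199)).

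Lrp5, a coreceptor of the canonical branch, had the narrowest range of the tested members. Its values were 26.5, 27.6, 27.5, 27.2, 29.7, 26.4 and 27.1 FPKM from E12.5 to E18.5, 23.8, 33.2, 32.3, 33.5 and 33.6 from D1 to W2, and 26.7, 21.1 and 21.9 at W3, W6 and W8. All lay within 1.60-fold of each other, and within 1.77-fold with median-ratio scaling. The age classes nevertheless differed on both scales (adjusted p = 0.0182 as deposited and 0.000396 with scaling in the limma F test). The suckling level was called higher than the fetal one with median-ratio scaling (0.44 (adjusted p = 0.00235)) and with quantile normalization (0.35, adjusted p = 0.00629 in limma), and not as deposited (0.17 (adjusted p = 0.132)). D1 was the lowest suckling value, and without it the difference was called as deposited too (0.26, adjusted p = 0.0129 in limma). The weaned level was called lower (log2 fold change -0.41, standard error 0.12, adjusted p = 0.0115 in limma), but without W6 it was not (-0.35, adjusted p = 0.0667), and with median-ratio scaling the direction turned (0.16 (adjusted p = 0.310)). Its partner Lrp6 fell instead, with 16.7 FPKM at E12.5 and 7.16 FPKM at W8, with a called fetal trend (-0.11 (adjusted p = 0.00122)) and a called lower level in suckling than in fetal stomachs (-0.62 (adjusted p = 0.00112)).

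Fzd4, known as the receptor for Norrin in retinal vessels, had its highest value at W8. It ran through 16.3, 16.8, 17.9, 19.4, 17.1, 13.4 and 14.8 FPKM from E12.5 to E18.5, 11.3, 13.3, 13.0, 13.8 and 16.0 from D1 to W2, and 13.0, 14.2 and 20.8 at W3, W6 and W8. As deposited, only Fzd4 and Wnt11 of the tested members had their highest value in a weaned stomach, and with median-ratio scaling Fzd5, Fzd9, Lrp5, Lgr4 and Rnf43 did so too. No change of Fzd4 was called as deposited, and with median-ratio scaling it was higher in weaned than in suckling stomachs (0.77 (adjusted p = 0.00251)), as were Fzd5 (0.74 (adjusted p = 0.00664)) and Lgr4. The ratio of Fzd4 to Fzd2 FPKM was 0.312 at E12.5, 0.514 at D1 and 8.61 at W8. Of the summed receptor FPKM, Fzd2 held 26.6% at E12.5 and 3.04% at W8, and Lrp5 held 13.53% and 27.6%. Fzd2 led the receptors to E17.5, Fzd1 at E18.5 and D1, and Lrp5 from D3 on. Of the other receptors, Fzd3, Fzd5, Fzd6, Fzd8, Fzd9 and Fzd10 had maxima of 4.12, 14.3, 11.3, 11.4, 1.11 and 9.30 FPKM.

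In the R-spondin axis, Rspo1 and Rspo3 fell over the fetal days. Rspo1 (chromosome 4, 124986400 to 125009102) was measured at 25.3, 21.4, 23.3, 21.1, 9.61, 2.80 and 6.85 FPKM from E12.5 to E18.5, 15.4, 9.30, 11.7, 11.7 and 4.73 from D1 to W2, and 3.68, 3.33 and 2.66 at W3, W6 and W8. It was 21.1 FPKM or more to E15.5, had its fetal minimum at E17.5, was at 15.4 FPKM at D1, and was low again from W2. The fetal fall was called (slope -0.41, standard error 0.10, adjusted p = 0.0134 in limma), and after birth no difference from the fetal level was (-0.34 (adjusted p = 0.511)). The fall at weaning (log2 fold change -1.38, standard error 0.55, adjusted p = 0.0477 in limma) missed the threshold without D1 (adjusted p = 0.0932), without W8 (adjusted p = 0.123), without any 1 of E15.5, E16.5, D3, D5, W1, W3 and W6, and with median-ratio scaling (-0.91 (adjusted p = 0.181)).

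Mesothelial markers dipped with Rspo1 at E17.5. Wt1, a transcription factor of the mesothelium, was at 4.46, 0.359 and 1.14 FPKM at E16.5, E17.5 and E18.5, Upk3b at 26.5, 10.9 and 23.2 FPKM, and Lrrn4 at 2.80, 0.283 and 2.08 FPKM. The other 2 genes of the list did not dip at E17.5. Msln had its highest fetal value there, 27.2 FPKM, and Krt19, which gland epithelium also makes, was at 957 FPKM. All 5 reached 1 FPKM, and their sum, mostly Krt19, was 174 to 1027 FPKM in fetal, 680 to 1554 in suckling and 1732 to 2833 in weaned stomachs. The part of the mesothelium in the Rspo1 level was not tested.

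Rspo3, an R-spondin of gut stroma and vessels, took a milder course. It stood at 10.6, 10.2, 9.999, 8.38, 5.04, 6.20 and 5.55 FPKM from E12.5 to E18.5, 5.36, 7.52, 8.55, 7.12 and 8.36 from D1 to W2, and 4.42, 3.05 and 2.44 at W3, W6 and W8. The fetal fall was called (slope -0.17, standard error 0.03, adjusted p = 0.00574 in limma). As deposited the suckling values lay inside the fetal range, and the weaned values lay below both (log2 fold change -0.97, standard error 0.24, adjusted p = 0.00450 in limma, lost with median-ratio scaling at -0.50 (adjusted p = 0.0750)). Rspo2, known for limb and lung development, was low and mostly fetal. It gave 2.89, 4.69, 5.37, 5.41, 4.05, 1.70 and 1.93 FPKM from E12.5 to E18.5, 1.23, 1.08, 0.832, 0.818 and 0.637 from D1 to W2, and 0.394, 0.145 and 0.125 at W3, W6 and W8. It was highest at E15.5 and lower at every later time point, and no single fetal slope was called (-0.13 (adjusted p = 0.189)), and every suckling value was below every fetal one (log2 fold change -1.23, standard error 0.21, adjusted p = 0.000485 in limma).

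Lgr4 was the higher of the 2 Lgr receptors followed here. Its level was 22.4, 24.7, 26.3, 26.2, 29.4, 22.7 and 24.0 FPKM from E12.5 to E18.5, 17.9, 22.1, 18.45, 17.3 and 24.9 from D1 to W2, and 18.8, 17.4 and 25.8 at W3, W6 and W8. As deposited the values lay within 1.70-fold, and the small difference between suckling and fetal stomachs (log2 fold change -0.31, standard error 0.12, adjusted p = 0.0336 in limma) was lost with median-ratio scaling (-0.04 (adjusted p = 0.782)) and without any 1 of E14.5, E15.5, E16.5, D1, D5 and W1. With median-ratio scaling the weaned level was higher than the suckling one (0.60 (adjusted p = 0.00730)). Lgr4 held the largest share of the summed FPKM of the axis from E13.5 on, reaching 63.3% at W8, and the ratio of Lgr4 to Rspo1 FPKM was 0.886 at E12.5, 8.12 at E17.5 and 9.70 at W8. Lgr6 stayed at or under 1.57 FPKM, its value at D5.

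Rnf43, the ubiquitin ligase that R-spondins hold in check, ranged 2.37-fold as deposited and 2.75-fold with median-ratio scaling. It read 4.49, 6.69, 8.68, 7.21, 9.69, 9.82 and 7.69 FPKM from E12.5 to E18.5, 6.94, 6.75, 9.01, 7.03 and 9.38 from D1 to W2, and 5.21, 4.14 and 6.60 at W3, W6 and W8. No comparison called it as deposited (0.11 (adjusted p = 0.0672) for the fetal slope and -0.49 (adjusted p = 0.0581) for weaned against suckling in limma), and with median-ratio scaling a fetal rise was called (0.14 (adjusted p = 0.0218)). The rise was also called with quantile normalization (0.12, adjusted p = 0.0334 in limma), without E14.5 and without E18.5. The lower weaned level was called with the RNA and the protein phases of the study, without E12.5 and without W8. Rnf43 had a pair of entries in the files, on chromosome 11 and on an alternative scaffold, whose near-equal values were summed, so that its level may be overstated. Its relative Znrf3 ranged from 1.497 FPKM at W6 to 4.47 FPKM at E14.5.

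The antagonists were the class with the highest summed FPKM in the early fetal stomach, and their sum fell furthest from E12.5 to W8. Their summed level was 216 FPKM at E12.5 and 24.4 FPKM at W8, and divided by the summed ligand FPKM it was 3.00, 0.913 and 1.48 at E12.5, E17.5 and W8. Sfrp1 (chromosome 8, 23411317 to 23449632) had the highest FPKM of all members. It amounted to 123, 116, 99.2, 92.7, 66.4, 45.4 and 54.9 FPKM from E12.5 to E18.5, 49.6, 60.2, 57.1, 53.3 and 36.4 from D1 to W2, and 22.0, 12.004 and 13.1 at W3, W6 and W8. The level fell over the fetal days (slope -0.24, standard error 0.03, adjusted p = 0.00147 in limma) and again at weaning (log2 fold change -1.67, standard error 0.31, adjusted p = 0.00104 in limma), and both calls held with median-ratio scaling. The lower level in suckling than in fetal stomachs (-0.66 (adjusted p = 0.0343)) did not hold with it (-0.38 (adjusted p = 0.144)), nor without any 1 of E12.5 to E15.5, D1, W1 and W2.

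Sfrp2 (chromosome 3, 83766156 to 83774314), a close homolog, kept its level much longer. Its values were 68.7, 94.3, 89.0, 86.1, 74.5, 56.3 and 68.8 FPKM from E12.5 to E18.5, 66.9, 56.7, 82.1, 39.7 and 18.6 from D1 to W2, and 7.47, 2.01 and 1.47 at W3, W6 and W8. No fetal trend was called (-0.06 (adjusted p = 0.243)), D5 was within the fetal range, and the level fell from D5 through every later time point to W8. The drop at weaning was the deepest of the 41 members (log2 fold change -3.60, standard error 0.43, adjusted p = 0.000121 in limma), from 52.8 ± 24.6 (SD, n = 5 time points) to 3.65 ± 3.32 FPKM (SD, n = 3), and it held with median-ratio scaling (-3.16 (adjusted p = 0.000181)) and without D1, D3 and W8 (-3.00, adjusted p = 0.00793). The ratio of Sfrp2 to Sfrp1 FPKM was 0.558 at E12.5, 1.44 at D5 and 0.112 at W8.

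Dkk3, a Dickkopf relative whose binding to Lrp receptors is not established, rose while Sfrp1 fell. It was seen at 8.64, 11.49, 13.0, 20.5, 23.7, 21.5 and 23.3 FPKM from E12.5 to E18.5, 24.7, 29.9, 36.0, 26.9 and 23.6 from D1 to W2, and 14.3, 8.19 and 6.54 at W3, W6 and W8. The fetal rise (slope 0.23, standard error 0.04, adjusted p = 0.00248 in limma), the higher level in suckling stomachs (0.73 (adjusted p = 0.0220)) and the fall at weaning (-1.50 (adjusted p = 0.00186)) were each called, and each held with median-ratio scaling. Without D5 the difference between suckling and fetal stomachs was 0.64 (adjusted p = 0.0568 in limma), and without D1, D3 and W8 it was 0.75 (adjusted p = 0.0629). The fetal values from E15.5 on, 20.5 to 23.7 FPKM, lay near those of D1 and W2, so this difference of class means does not describe a step at birth. The Dkk3 to Sfrp1 ratio of FPKM went from 0.0702 at E12.5 to 0.630 at D5.

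Sfrp5, a marker of early foregut, was the member that fell fastest in the fetal stomach. It declined through 8.996, 7.24, 4.03, 1.91, 0.206, 0.393 and 0.357 FPKM from E12.5 to E18.5, 0.923, 0.998, 1.75, 1.05 and 3.51 from D1 to W2, and 1.71, 1.42 and 1.62 at W3, W6 and W8. Between E12.5 and E16.5 it fell to 0.206 FPKM (slope -0.57, standard error 0.07, adjusted p = 0.00104 in limma), and its highest value after birth was 3.51 FPKM at W2. Neither class comparison called it (-0.31 (adjusted p = 0.615) and 0.04 (adjusted p = 0.963)). Dkk2, an Lrp5 and Lrp6 ligand, had values of 3.89, 4.44, 5.89, 6.17, 5.25, 3.08 and 3.70 FPKM from E12.5 to E18.5, 3.41, 4.62, 3.68, 3.53 and 2.61 from D1 to W2, and 0.951, 0.473 and 0.544 at W3, W6 and W8. Its weaned values were all below 1 FPKM and below every other value, a difference called with and without scaling (log2 fold change -1.46, standard error 0.19, adjusted p = 0.000175 in limma and -1.21 (adjusted p = 0.000238)). Since Dkk2 passed the limit of 1 FPKM only through fetal and suckling stomachs, this call is no support. Sfrp4, Wif1 and Frzb had maxima of 6.08 FPKM at D3, 1.36 FPKM at D5 and 2.49 FPKM at E12.5.

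Axin2 (chromosome 11, 108917828 to 108950783), a scaffold of the β-catenin destruction complex, is a direct target gene of the canonical branch and is often read as a measure of it. Its course was 6.19, 6.06, 5.84, 4.66, 4.47, 4.74 and 3.74 FPKM from E12.5 to E18.5, 3.33, 3.29, 6.00, 2.46 and 2.82 from D1 to W2, and 1.18, 0.897 and 1.64 at W3, W6 and W8. It fell over the fetal days (slope -0.10, standard error 0.02, adjusted p = 0.00391 in limma), lay at D5 in the range of the earliest fetal values, and was below all suckling values in weaned stomachs (log2 fold change -0.998, standard error 0.21, adjusted p = 0.00181 in limma). These falls held with median-ratio scaling (-0.07 (adjusted p = 0.0211) and -0.65 (adjusted p = 0.0121)). The lower level in suckling than in fetal stomachs (-0.44 (adjusted p = 0.0320)) was lost with it (-0.22 (adjusted p = 0.218)) and without any 1 of E12.5 to E14.5, D1, D3, W1 and W2. With quantile normalization the fall of Axin2 at weaning was not called (-0.45, adjusted p = 0.0951 in limma).

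Porcn, needed for the secretion of Wnts, was highest in suckling stomachs. It showed 7.52, 8.16, 6.46, 7.31, 8.59, 10.4 and 8.83 FPKM from E12.5 to E18.5, 13.47, 9.22, 13.47, 10.1 and 11.3 from D1 to W2, and 5.54, 5.32 and 6.31 at W3, W6 and W8. The higher level in suckling than in fetal stomachs (log2 fold change 0.45, standard error 0.12, adjusted p = 0.00560 in limma) held with median-ratio scaling (0.69 (adjusted p = 0.00105)) and without D1, D3 and W8 (0.46, adjusted p = 0.0158 in limma). The ranges overlapped, with E17.5 above D3 and W1. The step down at weaning (log2 fold change -0.88, standard error 0.15, adjusted p = 0.000588 in limma) was lost with scaling (-0.37 (adjusted p = 0.0922)). Wls, the carrier of Wnts to the cell surface, was at 45.8 FPKM at E12.5, 46.0 FPKM at D1 and 26.6 FPKM at W8.

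Other genes of the pathway were read from a list of 45 genes, of which 43 reached 1 FPKM and were tested, and Sost and Draxin did not. Over the fetal days 5 rose (21.1% of all genes) and 30 fell (35.5%). Suckling stomachs were higher than fetal ones for 2 (17.0%) and lower for 28 (41.9%), and weaned stomachs were higher than suckling ones for 1, Sostdc1 (4.9%), and lower for 33 (46.7%). Kremen2, among the 2 higher in suckling stomachs, was at 0.880 FPKM or less at every fetal time point. It passed the limit only through suckling and weaned stomachs, so its call against fetal stomachs is no support on either scale. Ror1, Pygo1 and Dact2, among the 33 lower, were under 1 FPKM in every weaned stomach, so these calls are no support. With median-ratio scaling 8 rose (26.6%) and 26 fell (27.4%) over the fetal days, 6 were higher (26.0%) and 20 lower (24.8%) in suckling stomachs, and 3 were higher (20.9%) and 21 lower (15.7%) in weaned ones. The median log2 fold changes of the list were -0.55 for suckling against fetal and -1.04 for weaned against suckling stomachs, beside -0.22 and -0.42 over all genes (-0.29 and -0.67, beside 0.00 and -0.02, with scaling).

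By role, 7 of 11 coreceptors and polarity genes fell over the fetal days (35.5% of all genes) and 10 of 11 were lower at weaning (46.7%). With median-ratio scaling they were 7 (27.4% of all genes) and 8 (15.7%). Ror2, a receptor for Wnt5a, was at 27.3 FPKM at E12.5 and 11.1 FPKM at E18.5 (slope -0.21, standard error 0.02, adjusted p = 0.000222 in limma), and Ptk7, a polarity coreceptor, at 104 and 39.2 FPKM (slope -0.25, standard error 0.02, adjusted p = 0.000294 in limma). Of 12 transduction genes 11 fell over the fetal days (8 with scaling), among them Ctnnb1, which encodes β-catenin (slope -0.14, standard error 0.02, adjusted p = 0.00246 in limma), and so did Tcf7, Tcf7l1 and Tcf7l2. Lef1 was called falling too, but it passed the limit of 1 FPKM only at E12.5, with 1.39 FPKM. Its call is therefore no support, here or among the 30 genes of the list that fell.

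Over the fetal days feedback and target genes did not move as a block. Of 8, 3 rose (Nkd1, Apcdd1 and Tnfrsf19) and 3 fell (Notum, Sp5 and Ccnd1), beside 21.1% and 35.5% of all genes. In weaned against suckling stomachs 5 were lower (46.7% of all genes) and 0 higher (4.9%). The counts were the same with median-ratio scaling (15.7% and 20.9% of all genes). Nkd1, an inhibitor of Dishevelled, had 10.8 FPKM at E12.5 and 26.2 FPKM at E18.5 (slope 0.20, standard error 0.01, adjusted p = 0.000199 in limma). Notum, an enzyme that removes the lipid from Wnts, went from 10.4 to 1.02 FPKM (slope -0.57, standard error 0.10, adjusted p = 0.00364 in limma). Sostdc1, an antagonist that binds Lrp proteins, rose at weaning from 1.28 to 2.50 FPKM in suckling stomachs to 3.29, 6.23 and 7.22 FPKM at W3, W6 and W8 (log2 fold change 1.17, standard error 0.22, adjusted p = 0.00118 in limma).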

How the data were processed

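Whole-stomach RNA-Seq gave 1 transcriptome at each of 15 time points. The authors deposited 1 file per transcriptome with 46966 gene entries, each with an FPKM and its confidence bounds. The methods of the study describe HISAT2 and StringTie, the submitters' notes name Bowtie 0.12.2, FastQC and GRCm38.p2, and the tables are laid out like Cufflinks output. The methods name liver, and the labels stomach, as the source of the RNA.

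Entries of a symbol were summed, and time points were grouped by the age labels into fetal (n = 7), suckling (n = 5) and weaned (n = 3), so that p-values measure the spread between time points of a class. The 16902 genes that reached 1 FPKM entered limma 3.58.1 (R 4.3.3) on the log2(FPKM + 1) scale, with a moderated F test and 2 contrasts over 15 transcriptomes, a slope per embryonic day over the 7 fetal ones, Benjamini-Hochberg adjustment over all genes and a threshold of 0.05. Median-ratio scaling used the 17090 symbols above 0 in all transcriptomes. On simulated data for weaned against suckling stomachs, 57 of 87 genes shifted by 1 on the log2 scale and 103 of 113 shifted by 2 were recovered, with 6 false calls. The simulation shifted 200 of 16902 genes and held no difference of scale between transcriptomes, so these rates need not hold for the data.

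The members and gene lists were chosen with earlier results of these data known. In each class the 5 members with the highest maximal FPKM, and Axin2 and Porcn, are described at every time point. Alternatives were other pseudocounts, FPKM limits, scalings, thresholds, phase divisions and left-out time points, of which leaving out D1, D3 and W8 together was chosen after seeing the data. Confidence bounds cover counting error only.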

Additional observations from a re-analysis of the deposited data

Results flagged for a closer look

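In 82 groups, the fetal and the suckling values of each of the 41 tested members, 5 had a highest or lowest value that stood apart from the others by Dixon's test at 95%, close to the 1 in 20 that chance gives. The age classes are not replicates of one age, so a value can also stand apart because the level changes with age. Among the suckling stomachs, Wnt7b was highest at D1 with 15.1 FPKM, the next value being 4.75 FPKM, and D1 was also the transcriptome with Alb at 461 FPKM. At D1 Wnt5a was lowest with 8.92 FPKM, below the next value of 11.0 FPKM, and Lrp5 was lowest with 23.8 FPKM, below 32.3 FPKM. Wnt5b was lowest at W2 with 5.24 FPKM, below 6.14 FPKM. Among the fetal stomachs, Lrp5 was highest at E16.5 with 29.7 FPKM, above 27.6 FPKM. The part of liver RNA in the values at D1 was not tested.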

How the results depend on the processing

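No paired analysis was possible because the samples of the age classes share no replicate numbers in the labels, each being a different age with 1 transcriptome. Plain numbers in brackets are the genes called in the same way among all genes tested, 16902 unless stated and slightly fewer with time points left out. The fetal trend was the most stable comparison: 10 members rose (3563) and 13 fell (5999), and with each fetal time point left out 9 to 10 rose (2907 to 3470) and 13 to 16 fell (4950 to 5843). The class comparisons depended on the scale. For suckling against fetal stomachs, 4 members were higher as deposited (2865), 7 with median-ratio scaling (4400) and 2 at a threshold of 0.01 (1820). The number was 7 with the RNA phases (3194) and 8 with the protein phases of the study (3386), and 3 to 7 with a time point left out (2469 to 3185). Lower were 9 as deposited (7079), 5 with median-ratio scaling (4195), 5 at 0.01 (5170) and 17 with the protein phases (7444). Without D1, D3 and W8 5 were lower (6091), and with a time point left out 6 to 12 (6223 to 7536). For weaned against suckling stomachs, the 27 lower members (7891) became 16 with median-ratio scaling (2662), 9 with quantile normalization (1879) and 17 at 0.01 (4877). There were 15 without D1, D3 and W8 (4074) and 16 to 29 with a time point left out (4637 to 8359), the 16 being without W6 (4637). The calls over all genes were fewer in these settings as well. The count of higher members was 0 as deposited (4.9% of all genes), 4 with median-ratio scaling (20.9%) and 3 with quantile normalization. With quantile normalization more of all genes were called higher than lower (1879). With a maximal FPKM of at least 0.5 and with no filter the count was 1, Rspo4 (log2 fold change 0.41). Rspo4 reached 0.5 FPKM only at W8, with 0.952 FPKM, so its call is no support. Across the 3 classes 24 to 33 members were called with a time point left out (12366 to 13726). The weaned difference of Lrp5 was the only one that turned, to 0.16 (adjusted p = 0.310 in limma) with median-ratio scaling. Of the other pathway genes, those higher in suckling than fetal stomachs numbered 2 as deposited (2865, with Kremen2, whose call is no support), 6 with median-ratio scaling (4400), 5 with quantile normalization (3562) and 4 with the protein phases (3386). The number was 1 with a pseudocount of 0.1 (2831) or 0.5 (2863), with no filter (3000 of 28775), at 0.01 (1820) and without D1, D3 and W8 (2312). It was 1 to 2 with a time point left out (2469 to 3185). Higher in weaned stomachs were 1 (4.9% of all genes), 3 with median-ratio scaling (20.9%) and 2 with quantile normalization. Lower in the same settings were 33 (7891), 21 (2662) and 20 (1879). Rising over the fetal days were 5 (3563), 8 with median-ratio scaling (4498), 3 at 0.01 (2411) and 3 to 7 with a time point left out, the 3 being without E12.5 (2907) or E13.5 (2984). Shares moved where a class was counted differently: Wnt11 at W8 was 37.0% of the ligands without Wnt4, Rspo1 at E12.5 was 53.5% of the R-spondin axis without Lgr4, and Lgr4 at W8 was 68.8% when a symbol's first entry alone was counted. For the described members, another setting left 721 values in their direction and on their side of the threshold, while 43 lost and 27 gained a call, and with a time point left out the numbers were 932, 36 and 22. Part of these values could hardly change, so the counts overstate stability. Fetal slopes without a suckling or weaned time point rest on the same 7 fetal values. Of the described members only Rnf43 has more than 1 entry, so counting the first entry alone left the others as they were. The causes were not tested. Levels under about 0.0679 FPKM rest on about 1 fragment, so that the weaned values of Wnt7b and Wnt10a at W8 cannot be told from 0.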
